A study of Mus musculus with 20 samples.

Results

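The genes described here are 39 named genes of glucose uptake, glycolysis, lactate exchange, pyruvate entry into mitochondria and the citric acid cycle, chosen by symbol. All 39 are among the 23129 gene names of the count table, and 38 passed the filter on low counts and were tested. The one that did not pass is Eno1, an enolase gene. Messenger RNA was sequenced from 1000 sorted tdTomato-positive AgRP neurons per library, taken from a 1 mm punch of the hypothalamus of C57BL/6 mice at 25 to 30 days after birth. The wild-type groups carried AgRP-Cre/+ and the Ai9/+ reporter. The Phf6 conditional knockout (cKO) groups were littermates with the same Cre and reporter plus a floxed Phf6 allele, written Phf6 flox/y. Both genotypes therefore carry the Cre and the reporter, and the deletion is limited to cells in which the AgRP-driven Cre was active. Each genotype was sampled fed, or after an overnight fast that began at 5 pm on the previous day with water left in place, giving 4 groups of 5 libraries. The design asks how AgRP neurons differ between fed and fasted mice, and whether loss of Phf6, which encodes a chromatin-associated protein, alters that difference. Nothing in the labels says that the 5 libraries of a group came from separate animals, so the p-values measure the spread between these libraries.

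Glycolysis begins with glucose entering the cell through facilitative transporters and being trapped by hexokinase. Phosphofructokinase then commits it to breakdown, and the later steps end with pyruvate made by pyruvate kinase. Pyruvate is either exchanged with lactate through lactate dehydrogenase and monocarboxylate carriers, or enters mitochondria, where pyruvate dehydrogenase makes acetyl-CoA and citrate synthase brings it into the citric acid cycle. AgRP neurons of the arcuate nucleus drive feeding and are more active when food is withheld.

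Library totals ran from 10604977 to 13573524 assigned counts in the fed groups and from 8494499 to 10000278 in the fasted groups. The 39 genes took 1.34% to 1.44% of the counts in fed libraries and 1.10% to 1.31% in fasted ones. These are shares of raw totals, in which the 50 most counted genes took a larger part when fasted. That part averaged 14.0% in wild-type fed and 19.7% in wild-type fasted libraries, and 14.9% and 18.1% in the cKO. The raw shares are therefore not on the scale of the levels below. Levels are given as CPM, the counts of a gene scaled to a common library total after TMM adjustment, where 3 counts, the limit that a count of 0 allows, come to 0.221 to 0.353 CPM. Phf6, which checks the labels, stood at 276 ± 10.2 CPM (mean ± SD, n = 5) in wild-type fed, 128 ± 11.0 in wild-type fasted, 70.7 ± 4.85 in cKO fed and 61.2 ± 6.90 in cKO fasted libraries, so transcripts remained in the cKO. Agrp and Npy, the defining peptides of the sorted cells, were abundant in every library, with Agrp between 4259 and 17826 CPM. Of the markers of other cells, the microglial gene Tmem119 was at 0 in all 20 libraries, the oligodendrocyte gene Olig2 in 13, the astrocyte gene Aqp4 in 12 and the endothelial gene Cldn5 in 11. The fasted libraries 1 and 2 of each genotype also stood apart from libraries 3 to 5. Both lay below all of libraries 3 to 5 for 22.3% and above them for 25.6% of tested genes in the wild type, and for 17.2% and 17.2% in the cKO. For several results that turn on this, the fit with fasted libraries 1 and 2 alone or with 3 to 5 alone is given. In libraries of pooled cells, fewer expressing cells and less RNA per cell cannot be told apart.

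RefSeq start-site windows of 250 bases before to 50 after the start (build GRCm38.p6) were available for 36 of the 39 genes, in 56 windows, and not for Slc2a3, Idh3a and Slc16a7. A stretch upstream of annotated exons is shown for 4 of them: Cs and Fh1, whose fasting response differed between genotypes, Dlat, which rose in both, and Ldha, which holds 5 matches to ACGTG. They are written 5′ to 3′ on the gene's strand, and capitals mark matches on either strand to any of the 5 motifs searched, which are spelled out after the sequences. Cs lies at chr10:128337477-128337726 (+), Fh1 at chr1:175625636-175625885 (-), Dlat at chr9:50659781-50660030 (-) and Ldha at chr7:46845554-46845803 (+).
Cs: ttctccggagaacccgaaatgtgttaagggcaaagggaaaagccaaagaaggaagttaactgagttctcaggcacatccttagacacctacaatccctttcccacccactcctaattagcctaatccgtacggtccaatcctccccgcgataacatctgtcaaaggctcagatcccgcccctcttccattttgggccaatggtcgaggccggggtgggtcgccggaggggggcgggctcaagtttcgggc
Fh1: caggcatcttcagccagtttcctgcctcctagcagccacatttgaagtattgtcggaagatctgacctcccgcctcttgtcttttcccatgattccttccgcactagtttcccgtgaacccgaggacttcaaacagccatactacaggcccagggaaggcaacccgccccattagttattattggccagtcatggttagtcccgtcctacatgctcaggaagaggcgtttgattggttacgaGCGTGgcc
Dlat: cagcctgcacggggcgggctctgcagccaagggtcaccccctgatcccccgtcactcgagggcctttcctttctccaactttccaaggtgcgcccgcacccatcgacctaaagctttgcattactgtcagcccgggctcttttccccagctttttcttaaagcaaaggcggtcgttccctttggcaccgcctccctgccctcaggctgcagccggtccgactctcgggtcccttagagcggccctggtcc
Ldha: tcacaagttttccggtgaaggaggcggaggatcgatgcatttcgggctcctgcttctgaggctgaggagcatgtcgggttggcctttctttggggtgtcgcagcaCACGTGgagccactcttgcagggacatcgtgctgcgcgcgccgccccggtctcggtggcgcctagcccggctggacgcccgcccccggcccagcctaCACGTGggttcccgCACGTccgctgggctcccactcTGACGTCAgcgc
ACGTG is a core of the site that hypoxia-inducible factors bind, and GCGTG is the other form of that core. CACGTG is the E-box of the Myc and ChREBP families, and each such match is also a match to ACGTG on both strands. TGACGTCA is the cyclic AMP response element, and TGTTTAC a forkhead core. ACGTG was present in 50% of the 56 windows of these genes, covering 19 genes, against 19.6% of all 32851 windows. GCGTG was in 53.6% of the windows (21 genes) against 32.4% of all windows, and CACGTG in 16.1% (7 genes) against 7.15%. TGACGTCA was in 8.93% (3 genes) against 1.79%, and TGTTTAC in 1.79% (1 gene) against 3.65%. The windows of these genes were also richer in G and C, with a median of 60.0% against 52.7%, and the part of base composition in the motif shares was not tested. The Cs and Dlat windows held no match to any of the 5 motifs, and the stretch shown for Fh1 held 1, to GCGTG.

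In fed wild-type neurons the genes spanned a wide range of levels per kilobase of exon. The cytosolic malate dehydrogenase gene Mdh1 was highest at 803 ± 12.02 CPM per kilobase (SD, n = 5), followed by Aldoa, the main aldolase, at 624 ± 18.0. Ldhb, at 349 ± 7.58, and Tpi1, which encodes triosephosphate isomerase, at 348 ± 15.9, came next and did not differ beyond their spread. At the low end stood Pcx, the gene of pyruvate carboxylase, at 0.983 ± 0.205, the lactate carrier gene Slc16a7 at 0.634 ± 0.144, Pfkfb3 at 0.550 ± 0.0509 and Hk2 at 0.0931 ± 0.0514 CPM per kilobase. Hk1 at 15.5 ± 0.637 was the main hexokinase among the pair. Gapdh, whose enzyme oxidises glyceraldehyde 3-phosphate, was listed at only 34.7 ± 1.25 CPM per kilobase, and 25.1% of its 50-base exon sequences occur in 223 other annotated genes, 213 of them pseudogenes. The same share was 53.9% for Pgk1 (phosphoglycerate kinase), 36.2% for Pgam1 (phosphoglycerate mutase), 25.8% for Pkm (pyruvate kinase) and 21.0% for Ldhb. For Pkm the gene sharing most, with 12.1%, was Gm49759, which overlaps its exons on the same strand. The levels of these genes are uncertain wherever the counting left out or split reads shared with other genes.

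Fasting in wild-type neurons raised 11 of the 38 tested genes and lowered 18, and 9 did not pass an adjusted p of 0.05. Over all 13237 tested genes 29.6% rose and 31.3% fell, 60.9% in either direction, so a call on its own was common. By step, the genes that fell were both glucose transporters, 4 of 8 from hexokinase to phosphofructokinase, 5 of 8 from aldolase to pyruvate kinase, 1 of 4 of lactate exchange, 1 of 5 of pyruvate entry and 5 of 11 of the citric acid cycle. Those that rose were 2 of 8 from aldolase to pyruvate kinase, 1 of 4 of lactate exchange, 3 of 5 of pyruvate entry and 5 of 11 of the cycle. The fed and fasted libraries did not overlap for 20 genes, 8 higher and 12 lower, against 22.5% and 22.6% of all tested genes, 45.0% in all. The median log2 fold change was -0.07 over these genes and -0.032 over all tested genes.

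Fasting in cKO neurons raised 9 of the 38 genes, lowered 14 and left 15 short of the threshold, where 26.0% of all tested genes rose and 27.0% fell, 53.1% in either direction. The libraries did not overlap for 22 genes, 9 higher and 13 lower, against 39.6% of all tested genes. The median log2 fold change was -0.03 over these genes and -0.033 over all tested genes. The wild-type and cKO fasting comparisons use different libraries, and their difference was tested as an interaction of genotype with fasting.

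**Figure D1:**
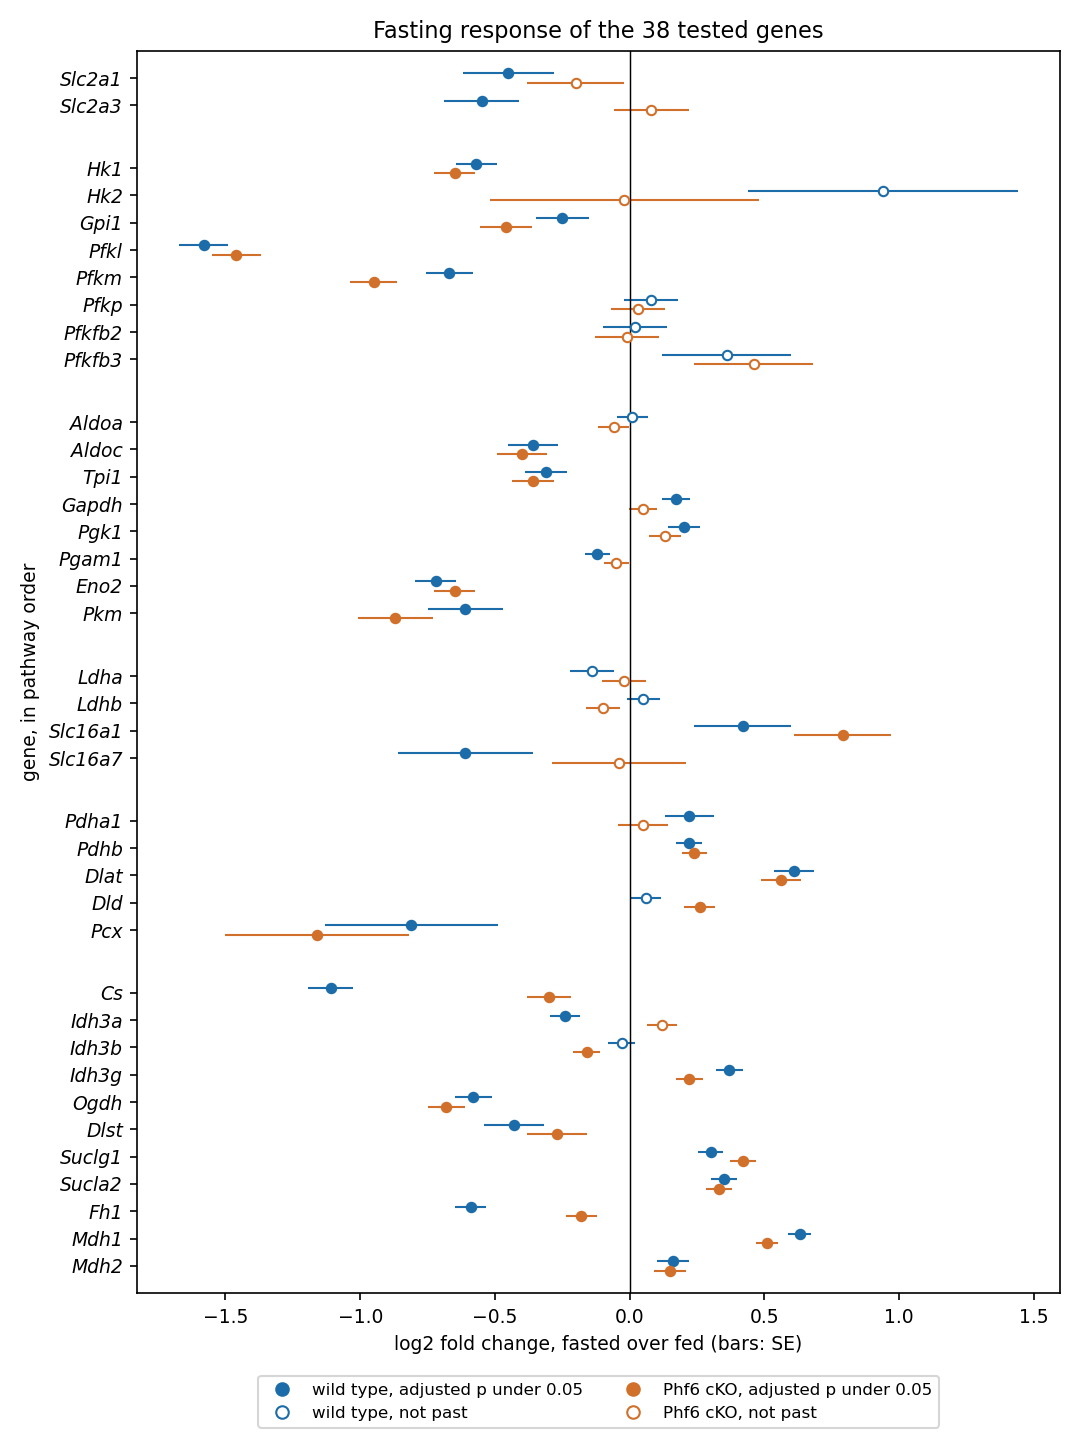
Log2 fold change of fasted over fed libraries (x axis) for the 38 tested genes in pathway order (y axis), in wild type (blue) and Phf6 cKO (orange), with bars for the standard error and filled points for an adjusted p under 0.05. Pfkl is farthest to the left in both genotypes, at -1.58 and -1.46, and the points of Cs and Fh1 lie farther left in wild type than in cKO.

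Neither of the glucose transporter genes rose with fasting. Slc2a3, which encodes the neuronal transporter GLUT3, fell in the wild type. Its wild-type levels were 33.3, 29.6, 30.8, 35.0 and 28.8 CPM fed and 23.8, 21.7, 21.3, 18.8 and 22.3 CPM fasted, with no overlap (edgeR log2 fold change -0.55 ± 0.14 (SE), adjusted p = 0.00141). In the cKO the fed libraries held 30.1, 28.7, 31.6, 30.1 and 26.6 CPM and the fasted ones 39.01, 43.8, 20.3, 25.9 and 26.5 CPM, and the call was not reached (edgeR log2 fold change 0.08 ± 0.14 (SE), adjusted p = 0.665). The fasted cKO libraries 1 and 2, at 39.01 and 43.8 CPM, lay above every fed cKO library, while libraries 3 to 5 averaged 24.2 CPM. With fasted libraries 3 to 5 alone the cKO change was -0.28 (adjusted p = 0.035, edgeR).

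Slc2a1 encodes GLUT1, the transporter of the blood-brain barrier and of glia, and stood at 11.9 ± 1.99 CPM in wild-type fed and 8.72 ± 1.36 in wild-type fasted libraries (edgeR log2 fold change -0.45 ± 0.17 (SE), adjusted p = 0.028). The wild-type call ended when fed library 4 or 5, or fasted library 2 or 4, was left out (adjusted p 0.0619 to 0.0815), and the cKO difference was -0.20 and not past the threshold. The summed level of 10 astrocyte markers was 10.9 to 18.4 CPM in wild-type fed, 34.2 to 66.0 in wild-type fasted, 29.6 to 61.8 in cKO fed and 43.7 to 97.9 CPM in cKO fasted libraries. The summed level of 8 endothelial markers was 15.7 to 20.9, 12.4 to 22.3, 13.4 to 19.9 and 7.88 to 46.1 CPM in the same order. With fasting in the wild type 2 of 6 tested astrocyte markers and 2 of 3 tested endothelial markers rose, and in the cKO 2 of 6 and 0 of 3. Oligodendrocyte markers went the other way, with 3 of 4 tested lower in the wild type and 2 of 4 in the cKO. Of all tested genes 29.6% rose and 31.3% fell in the wild type, and 26.0% and 27.0% in the cKO. The sum over 8 oligodendrocyte markers was 90.5 to 104.6 CPM in wild-type fed, 49.2 to 73.6 in wild-type fasted, 82.6 to 105.1 in cKO fed and 49.5 to 65.5 CPM in cKO fasted libraries, without overlap between fed and fasted. Mbp, Cnp and Mag had the highest median levels of these 8, so the sum need not follow oligodendrocyte content. The part of these cells in the levels of Slc2a1, of Aldoc and of the other genes that changed with fasting was not tested.

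At the first steps of glycolysis, from hexokinase to phosphofructokinase, 4 of 8 genes fell and none rose in either genotype. Counts by step, here and below, stand beside all-gene shares of 29.6% higher and 31.3% lower in the wild type. In the cKO those shares were 26.0% and 27.0%, and nothing particular to a step is read from the counts. Pfkl, the liver-type subunit of phosphofructokinase, moved most. It read 110.4, 104, 109, 119.9 and 112 CPM in wild-type fed and 37.8, 35.4, 38.4, 36.4 and 37.3 CPM in wild-type fasted libraries, a 3-fold fall (edgeR log2 fold change -1.58 ± 0.091 (SE), adjusted p = 2.26e-14). Among cKO libraries it read 117, 106, 102, 109 and 94.8 CPM fed and 32.5, 28.8, 44.1, 44.0 and 42.5 CPM fasted, a 2.74-fold fall (edgeR log2 fold change -1.46 ± 0.091 (SE), adjusted p = 3.26e-13). Every fasted library of each genotype lay far below every fed one.

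Pfkm, the muscle-type subunit and the highest of the 3 subunit genes per kilobase, fell too. Its levels were 119, 126, 125, 122 and 132 CPM in wild-type fed and 59.0, 75.3, 72.0, 96.5 and 88.4 CPM in wild-type fasted libraries (edgeR log2 fold change -0.67 ± 0.087 (SE), adjusted p = 1.5e-07). In cKO libraries they were 127, 130.5, 125, 130.0 and 121 CPM fed and 61.8, 61.1, 63.0, 67.5 and 74.3 CPM fasted (edgeR log2 fold change -0.95 ± 0.088 (SE), adjusted p = 5.23e-10). Fed and fasted libraries were again apart in both genotypes. Pfkp, the platelet-type subunit, did not pass the test, at 172 ± 6.63 CPM fed and 181 ± 40.2 fasted in the wild type and 197 ± 8.96 and 201 ± 26.6 in the cKO. Its wild-type fasted libraries ran from 144 to 233 CPM, and with fasted libraries 1 and 2 alone its log2 fold change was -0.26 (adjusted p = 0.00256, edgeR).

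The makeup of the phosphofructokinase subunit transcripts shifted with fasting. Per kilobase, the ratio of Pfkp to Pfkm was 0.345 ± 0.0187 (SD, n = 5) in wild-type fed and 0.578 ± 0.0676 in wild-type fasted libraries. In cKO libraries it was 0.386 ± 0.0176 fed and 0.765 ± 0.110 fasted. The ratio of Pfkl to Pfkm went the other way, from 0.447 ± 0.0322 to 0.244 ± 0.0513 in the wild type and from 0.416 ± 0.0264 to 0.293 ± 0.0462 in the cKO. For both ratios the fasted libraries did not overlap the fed ones in either genotype. These ratios are given as a description without a test.

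Hk1, the main hexokinase of neurons, fell in both genotypes. It was at 138, 137, 130.3, 129 and 125 CPM in wild-type fed and 80.0, 73.4, 89.1, 106 and 95.7 CPM in wild-type fasted libraries (edgeR log2 fold change -0.57 ± 0.076 (SE), adjusted p = 2.45e-07). In the cKO it was at 140.4, 133, 127, 136 and 141 CPM fed and 98.1, 83.2, 79.7, 84.3 and 86.8 CPM fasted (edgeR log2 fold change -0.65 ± 0.077 (SE), adjusted p = 4.83e-08), with fed and fasted libraries apart. Hk2, the inducible hexokinase, was near the count limit in all groups, at 0.556 ± 0.307 CPM in wild-type fed and 1.08 ± 0.466 CPM in wild-type fasted libraries. Its wild-type difference of 0.94 on the log2 scale did not pass the test.

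Gpi1 encodes glucose-6-phosphate isomerase, which turns glucose 6-phosphate into fructose 6-phosphate. In the cKO it stood at 556 ± 22.1 CPM fed and 405 ± 30.5 fasted, with no overlap (edgeR log2 fold change -0.46 ± 0.097 (SE), adjusted p = 0.000251). In the wild type the fed libraries read 504, 527, 517, 528 and 539 CPM and the fasted ones 334, 327, 464, 535 and 539 CPM (edgeR log2 fold change -0.25 ± 0.097 (SE), adjusted p = 0.0286). Fasted libraries 1 and 2 were the low ones there, and 4 and 5 lay within or at the top of the fed range. The wild-type call ended without fasted library 1 or 2 or fed library 5 (adjusted p 0.0534 to 0.112), and with fasted libraries 3 to 5 alone the change was -0.03 (adjusted p = 0.679, edgeR).

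The regulators of phosphofructokinase did not pass the test with fasting. Pfkfb2 and Pfkfb3 encode the bifunctional enzymes that set the level of fructose 2,6-bisphosphate, an activator of phosphofructokinase. Pfkfb2 lay between 23.9 ± 3.10 and 24.9 ± 2.24 CPM over the 4 group means. Pfkfb3 had differences of 0.36 in the wild type and 0.46 in the cKO on the log2 scale.

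**Figure D2:**
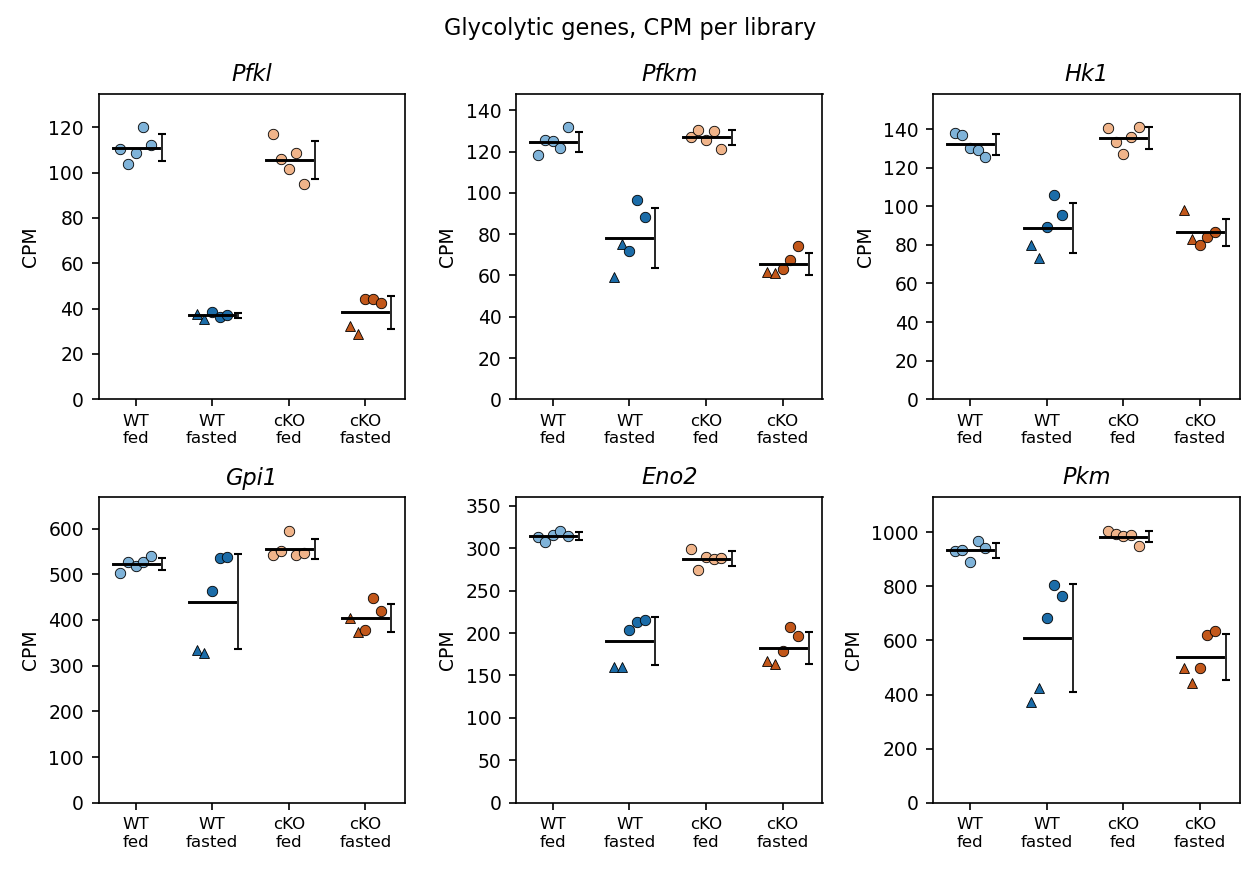
CPM (y axis) of 6 glycolytic genes in each library of the 4 groups (x axis), with horizontal lines for group means, bars for the SD (n = 5) and triangles for fasted libraries 1 and 2. Pfkl fell from 111 to 37.0 CPM in the wild type with narrow spread, while the wild-type fasted libraries of Gpi1 and Pkm are split, triangles lowest.

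Between aldolase and pyruvate kinase, 5 of 8 tested genes fell and 2 rose in the wild type, and 4 fell and none rose in the cKO. Eno2, the neuron-specific enolase, had 313, 308, 316, 320.3 and 314 CPM in wild-type fed and 159.7, 160.2, 203, 213 and 215 CPM in wild-type fasted libraries (edgeR log2 fold change -0.72 ± 0.076 (SE), adjusted p = 3.39e-09). In cKO libraries it had 299, 274, 289, 288 and 289 CPM fed and 167, 164, 179, 207 and 197 CPM fasted (edgeR log2 fold change -0.65 ± 0.076 (SE), adjusted p = 3.6e-08). The fasted libraries were lower without overlap in both genotypes.

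Pkm, the pyruvate kinase gene expressed in brain, followed the same direction with a wider spread. It measured 930.0, 935, 892, 969 and 943 CPM in wild-type fed and 374, 423, 684, 805 and 764 CPM in wild-type fasted libraries (edgeR log2 fold change -0.61 ± 0.14 (SE), adjusted p = 0.000314). The cKO libraries measured 1005, 992, 987, 989 and 948 CPM fed and 499.6, 443, 498, 620.5 and 636 CPM fasted (edgeR log2 fold change -0.87 ± 0.14 (SE), adjusted p = 5.1e-06). Wild-type fasted libraries 1 and 2 were the lowest of the 20, and libraries 3 to 5 averaged 751 CPM, still below every fed library.

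Aldoc, an aldolase that astrocytes express strongly, fell in both genotypes, from 216 ± 35.6 to 168 ± 5.50 CPM in the wild type (edgeR log2 fold change -0.36 ± 0.092 (SE), adjusted p = 0.0014) and from 203 ± 14.5 to 154 ± 23.8 CPM in the cKO (edgeR log2 fold change -0.40 ± 0.093 (SE), adjusted p = 0.000685). The summed astrocyte markers were higher in the fasted than in the fed wild-type libraries, and fed and fasted sums overlapped in the cKO. Agt had the highest median level of the 10 markers in that sum, so the sum need not follow astrocyte content. The part of astrocytes in the Aldoc change was not tested. Aldoa did not pass, at 1815 ± 52.3 and 1834 ± 203 CPM in wild-type fed and fasted and 1855 ± 65.9 and 1775 ± 84.0 CPM in cKO fed and fasted libraries. With wild-type fasted libraries 1 and 2 alone its log2 fold change was -0.17 (adjusted p = 0.000376, edgeR). Tpi1 fell in both, from 958 ± 43.8 to 771 ± 134 CPM in the wild type (edgeR log2 fold change -0.31 ± 0.078 (SE), adjusted p = 0.00107) and from 979.8 ± 27.9 to 762 ± 54.8 CPM in the cKO (edgeR log2 fold change -0.36 ± 0.078 (SE), adjusted p = 0.000289).

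A few genes of the middle steps changed in the wild type by small amounts. Gapdh rose from 143 ± 5.17 to 162 ± 6.56 CPM (edgeR log2 fold change 0.17 ± 0.052 (SE), adjusted p = 0.00565) and Pgk1 from 317 ± 10.9 to 365 ± 31.6 CPM (edgeR log2 fold change 0.20 ± 0.059 (SE), adjusted p = 0.0043). Pgk1 with fasted libraries 1 and 2 alone was at 0.06 (adjusted p = 0.361, edgeR). Pgam1 fell from 392 ± 15.0 to 359.8 ± 11.2 CPM (edgeR log2 fold change -0.12 ± 0.046 (SE), adjusted p = 0.0228), a call that ended without fed library 1 or 4 (adjusted p 0.0571 and 0.0609). None of the 3 passed in the cKO, where their log2 differences were 0.05, 0.13 and -0.05, and none differed between genotypes in its fasting response by the interaction test.

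Eno1, the ubiquitous enolase gene, had 0 to 6 counts in each library and was not tested. Its levels were 0.138 to 0.482 CPM in wild-type fed libraries, 0.110 to 0.338 in wild-type fasted, 0.00 to 0.524 in cKO fed and 0.00 to 0.478 in cKO fasted. In the annotation, 26.0% of its 50-base exon sequences occur in 23 other genes, and 25.3% in the retrogene Eno1b. Eno1b had 28.0 ± 1.48, 20.3 ± 8.36, 18.7 ± 1.32 and 24.0 ± 5.37 CPM in the same order of groups. Whether reads of Eno1 were assigned to Eno1b or left out was not tested.

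Of the 4 genes of lactate exchange, the lactate dehydrogenase genes did not pass the test with fasting in either genotype. Ldha, the subunit that favours lactate formation, stood at 391 ± 9.26, 355 ± 60.2, 368 ± 12.8 and 363 ± 40.5 CPM in wild-type fed, wild-type fasted, cKO fed and cKO fasted libraries. Ldhb, the subunit that favours pyruvate formation, stood at 548 ± 11.9, 567 ± 38.2, 558 ± 33.5 and 521 ± 55.3 CPM in that order. Per kilobase the ratio of Ldhb to Ldha was 2.96 ± 0.0897, 3.42 ± 0.386, 3.20 ± 0.199 and 3.04 ± 0.354, with Ldhb the higher in every library. The size of this ratio is uncertain, since 21.0% of 50-base exon sequences of Ldhb and 9.26% of those of Ldha occur in other genes. In wild-type fasted libraries 1 and 2 Ldha was at 288 and 293 CPM, against a mean of 398 CPM in libraries 3 to 5.

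The monocarboxylate carrier genes were low. Slc16a1, which encodes MCT1, rose in the cKO, where it had 8.12, 9.72, 11.2, 6.48 and 9.15 CPM fed and 17.3, 15.7, 13.7, 17.1 and 13.6 CPM fasted, without overlap (edgeR log2 fold change 0.79 ± 0.18 (SE), adjusted p = 0.000565). In the wild type it had 8.35, 9.05, 11.3, 17.2 and 11.8 CPM fed and 16.4, 15.8, 11.6, 13.4 and 19.9 CPM fasted, which overlapped (edgeR log2 fold change 0.42 ± 0.18 (SE), adjusted p = 0.0426). Slc16a7, which encodes the neuronal carrier MCT2, fell in the wild type from 7.50 ± 1.71 to 4.89 ± 2.24 CPM (edgeR log2 fold change -0.61 ± 0.25 (SE), adjusted p = 0.0388) and was -0.04 on the log2 scale in the cKO. Both wild-type calls were fragile. That of Slc16a1 ended without any 1 of 7 libraries (fed 1, 2, 3 or 5, or fasted 1, 2 or 5, adjusted p 0.0603 to 0.152), and that of Slc16a7 without any 1 of 6 (fed 1, 2 or 4, or fasted 1, 2 or 5, adjusted p 0.0564 to 0.128).

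At the entry of pyruvate into mitochondria, 3 of 5 genes rose and 1 fell in each genotype. Of all tested genes 29.6% rose and 31.3% fell in the wild type, and 26.0% and 27.0% in the cKO. Dlat encodes the E2 subunit of pyruvate dehydrogenase, which passes the acetyl group to coenzyme A. It was at 77.7, 96.3, 90.1, 97.4 and 89.3 CPM in wild-type fed and 146, 128, 128, 134 and 150.1 CPM in wild-type fasted libraries (edgeR log2 fold change 0.61 ± 0.074 (SE), adjusted p = 4.7e-08). In cKO libraries it was at 106, 106, 94.7, 104 and 101 CPM fed and 161, 174, 142, 134 and 145 CPM fasted (edgeR log2 fold change 0.56 ± 0.074 (SE), adjusted p = 2.49e-07). All fasted libraries lay above all fed ones of their genotype.

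Pdhb, the E1 beta subunit, rose from 327 ± 10.9 to 381 ± 19.2 CPM in the wild type (edgeR log2 fold change 0.22 ± 0.047 (SE), adjusted p = 0.000245) and from 334 ± 6.79 to 395 ± 14.6 CPM in the cKO (edgeR log2 fold change 0.24 ± 0.047 (SE), adjusted p = 8.7e-05). Dld, the E3 subunit shared with 2-oxoglutarate dehydrogenase, rose in the cKO from 214 ± 11.7 to 256 ± 8.73 CPM (edgeR log2 fold change 0.26 ± 0.057 (SE), adjusted p = 0.000306). That call ended with GC and length offsets (adjusted p = 0.226, edgeR). In the wild type Dld was at 218 ± 13.5 CPM fed and 228 ± 14.6 fasted and did not pass. Pdha1, the E1 alpha subunit, passed in the wild type only narrowly, at 79.0 ± 4.67 CPM fed and 92.1 ± 15.7 fasted (edgeR log2 fold change 0.22 ± 0.091 (SE), adjusted p = 0.038). That call ended without fed library 1, 2 or 5 or fasted library 4 or 5 (adjusted p 0.0669 to 0.157), and with fasted libraries 1 and 2 alone the difference was -0.04 (adjusted p = 0.69).

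Pcx, which makes oxaloacetate from pyruvate and is known as a mainly glial enzyme in brain, was between 0.775 and 7.07 CPM in the 20 libraries. Its levels were 4.97, 4.24, 6.00, 3.35 and 4.82 CPM in wild-type fed and 2.34, 0.775, 1.84, 4.05 and 4.19 CPM in wild-type fasted libraries (edgeR log2 fold change -0.81 ± 0.32 (SE), adjusted p = 0.0317). In the cKO they were 4.45, 3.83, 3.01, 7.07 and 4.58 CPM fed and 2.63, 2.15, 2.32, 2.27 and 0.836 CPM fasted, without overlap (edgeR log2 fold change -1.16 ± 0.34 (SE), adjusted p = 0.00472). The wild-type call ended without fed library 1 or 3 or fasted library 1, 2 or 3 (adjusted p 0.0541 to 0.0936).

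The citric acid cycle genes moved in both directions, with 5 of 11 higher and 5 lower in the wild type and the same counts in the cKO. Mdh1, the cytosolic malate dehydrogenase of the malate-aspartate shuttle, had 2018, 2074, 2048, 2100.1 and 2068 CPM in wild-type fed and 3094, 3225, 3049.7, 3249.6 and 3331 CPM in wild-type fasted libraries (edgeR log2 fold change 0.63 ± 0.041 (SE), adjusted p = 2.39e-13). In the cKO it had 1993, 1902, 2138, 1974 and 2014 CPM fed and 2725, 2882, 2973, 2879.7 and 2795 CPM fasted (edgeR log2 fold change 0.51 ± 0.041 (SE), adjusted p = 4.12e-11). This was the largest rise on the log2 scale among members past the test in the wild type. Its mitochondrial partner Mdh2 rose less, from 661 ± 17.9 to 741 ± 86.0 CPM in the wild type (edgeR log2 fold change 0.16 ± 0.06 (SE), adjusted p = 0.0197) and from 661 ± 35.3 to 734 ± 31.6 CPM in the cKO (edgeR log2 fold change 0.15 ± 0.06 (SE), adjusted p = 0.0354). Wild-type fasted libraries 1 and 2 held 651 and 671 CPM of Mdh2, within the fed range, and with these alone its log2 fold change was -0.0164 (adjusted p = 0.789, edgeR). The Mdh2 calls ended without wild-type fed library 3 or fasted 4 or 5 (adjusted p 0.0532 to 0.113), and without cKO fed library 1, 2 or 4 or fasted 2, 4 or 5 (adjusted p 0.0579 to 0.101).

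Both succinyl-CoA ligase genes measured here rose. Suclg1 encodes the alpha subunit shared by the GDP- and ADP-forming enzymes, and went from 297 ± 7.57 to 364 ± 18.4 CPM in the wild type (edgeR log2 fold change 0.30 ± 0.047 (SE), adjusted p = 3.25e-06) and from 278 ± 5.54 to 370.3 ± 12.6 CPM in the cKO (edgeR log2 fold change 0.42 ± 0.047 (SE), adjusted p = 2.01e-08). Sucla2, the beta subunit of the ADP-forming enzyme, went from 413 ± 17.6 to 527 ± 21.9 CPM (edgeR log2 fold change 0.35 ± 0.048 (SE), adjusted p = 3.21e-07) and from 405 ± 13.4 to 509 ± 22.9 CPM (edgeR log2 fold change 0.33 ± 0.048 (SE), adjusted p = 1.54e-06). Fed and fasted libraries did not overlap for Suclg1 or Sucla2 in either genotype.

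The 2-oxoglutarate dehydrogenase complex, which makes succinyl-CoA, fell at its E1 and E2 subunits. Ogdh, the E1 subunit, had 122, 116, 109, 122 and 113 CPM in wild-type fed and 72.7, 82.1, 83.1, 79.4 and 70.7 CPM in wild-type fasted libraries (edgeR log2 fold change -0.58 ± 0.069 (SE), adjusted p = 2.6e-08). In cKO libraries it had 129, 117, 118, 122 and 102 CPM fed and 71.3, 72.1, 68.5, 79.3 and 76.5 CPM fasted (edgeR log2 fold change -0.68 ± 0.069 (SE), adjusted p = 3.38e-09). The groups were apart in both genotypes. Dlst, the E2 subunit, fell from 50.6 ± 2.74 to 37.4 ± 6.69 CPM in the wild type (edgeR log2 fold change -0.43 ± 0.11 (SE), adjusted p = 0.000841) and from 47.5 ± 2.87 to 39.3 ± 5.94 CPM in the cKO (edgeR log2 fold change -0.27 ± 0.11 (SE), adjusted p = 0.0323). The cKO call of Dlst ended without fed library 2 or 5 or fasted library 2, 3 or 4 (adjusted p 0.0539 to 0.12).

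The 3 subunits of NAD-dependent isocitrate dehydrogenase did not move together. Idh3g, a regulatory subunit, rose in both genotypes, from 383 ± 12.3 to 494 ± 34.5 CPM in the wild type (edgeR log2 fold change 0.37 ± 0.05 (SE), adjusted p = 3.22e-07) and from 426 ± 13.9 to 496 ± 19.3 CPM in the cKO (edgeR log2 fold change 0.22 ± 0.05 (SE), adjusted p = 0.000505). Idh3b, the other regulatory subunit, fell in the cKO from 291 ± 10.8 to 260.3 ± 11.4 CPM (edgeR log2 fold change -0.16 ± 0.05 (SE), adjusted p = 0.00794) and was -0.03 on the log2 scale in the wild type. Idh3a, the catalytic subunit, fell in the wild type (edgeR log2 fold change -0.24 ± 0.055 (SE), adjusted p = 0.000405), and is described with the genotype results below together with Cs and Fh1.

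**Figure D3:**
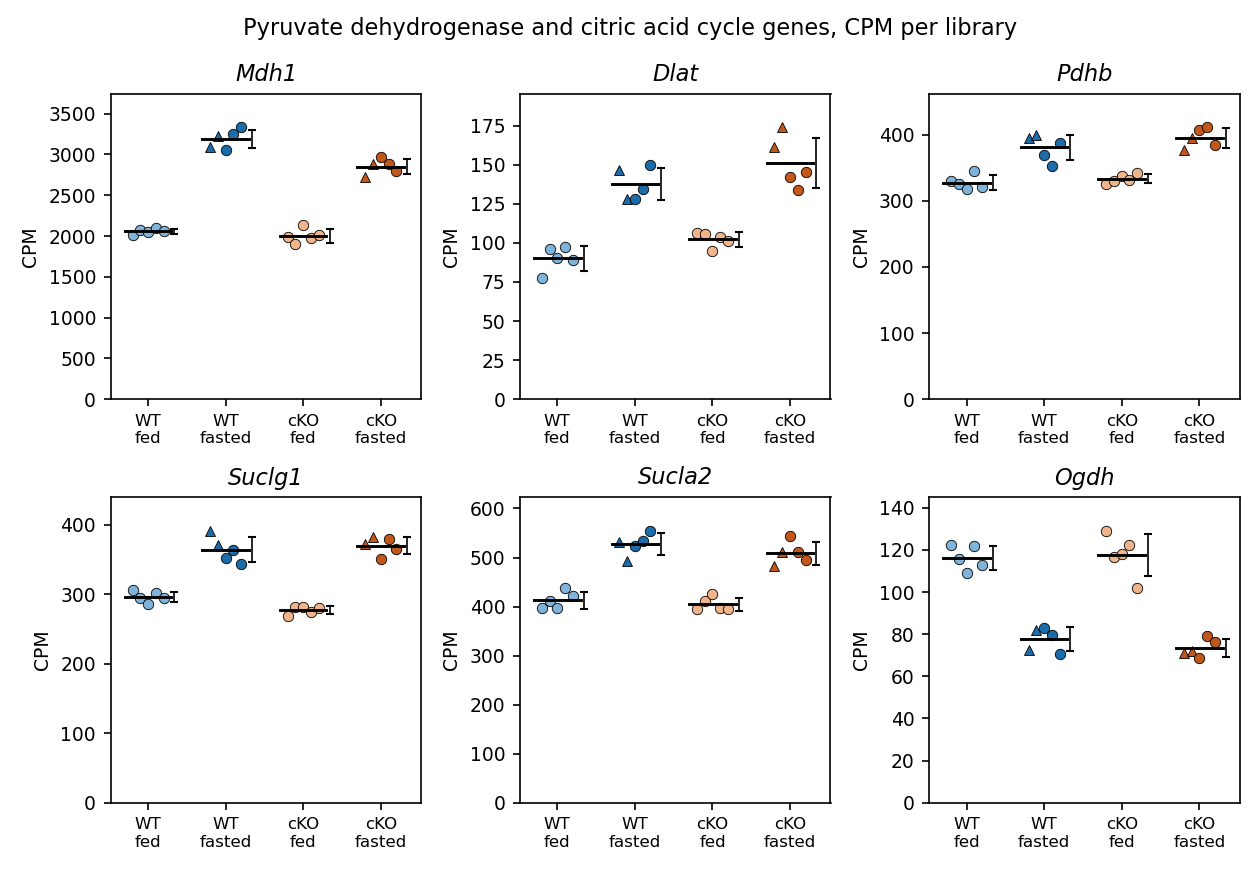
CPM (y axis) of 6 pyruvate dehydrogenase and citric acid cycle genes in each library of the 4 groups (x axis), with lines for group means, bars for the SD (n = 5) and triangles for fasted libraries 1 and 2. Mdh1, Dlat, Pdhb, Suclg1 and Sucla2 are higher and Ogdh is lower in every fasted library than in every fed library of the same genotype.

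In fed mice, 1 of the 38 tested genes was higher and 1 lower in cKO than in wild-type libraries, where 5.87% of all tested genes were higher and 3.81% lower, 9.68% in either direction. The lower one was Cs, which encodes citrate synthase, the first enzyme of the citric acid cycle (chr10:128337734-128362479, plus strand, GRCm38). The higher one was Idh3g (edgeR log2 fold change 0.16 ± 0.05 (SE), adjusted p = 0.0465), whose call ended when any 1 of the 10 fed libraries was left out (adjusted p 0.058 to 0.116). Groups did not overlap for 7 genes, 3 higher and 4 lower, against 8.19% and 6.28% of all tested genes, 14.5% in all. Besides Cs and Idh3g these were Gpi1 (0.09 on the log2 scale), Pfkp (0.19), Pgam1 (-0.12), Eno2 (-0.13) and Suclg1 (-0.09), none of which passed the test. The fit on the 2 fed groups alone called 4 of the genes higher and 6 lower, beside 1518 and 1434 of all 12973 genes tested there.

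In fasted mice, 6 genes were higher and 2 lower in cKO than in wild-type libraries, where 11.5% of all tested genes were higher and 8.84% lower, 20.3% in either direction. The higher genes were Fh1, Idh3a, Cs, Slc2a3, Pfkfb3 and Dld, and the lower ones Mdh1 and Pfkm. Groups did not overlap for 3 genes, Fh1 and Idh3a higher and Mdh1 lower, against 5.05% and 3.91% of all tested genes, 8.96% in all. The all-gene split of 1517 higher and 1170 lower calls turned to 1232 and 1575 with upper-quartile scaling, under which 5 of these genes were higher and 2 lower. With fasted libraries 1 and 2 alone 11 were higher and 2 lower, beside 1014 and 668 of all 13896 genes tested there. With libraries 3 to 5 alone 3 were higher and 8 lower, beside 1933 and 1707 of 13581. The fit on the 2 fasted groups alone called 3 higher and 1 lower, beside 731 and 621 of 12333. Both genotype comparisons and the fasting comparisons share libraries, so their values are set side by side and not counted as separate evidence.

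The fasting response differed between genotypes for 4 of the 38 genes by the interaction test (Cs, Fh1, Idh3a and Slc2a3), each with a more positive response in the cKO. No gene had a more negative response past the threshold, where 8.87% of all tested genes passed in the positive and 8.44% in the negative direction, 17.3% in all. At an unadjusted p under 0.05 the counts were 5 and 3, and DESeq2 gave 4 and 0. With fasted libraries 3 to 5 alone 4 were positive and 7 negative, beside 1810 and 1793 of all 13581 genes tested there. With libraries 1 and 2 alone the counts were 6 and 1, beside 1209 and 1001 of 13896.

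Cs showed the largest interaction among the genes past the test. Its wild-type levels were 91.0, 85.3, 83.9, 85.2 and 91.7 CPM fed and 43.7, 36.7, 41.9, 43.1 and 36.3 CPM fasted, a 2.17-fold fall (edgeR log2 fold change -1.11 ± 0.083 (SE), adjusted p = 3.56e-12). Its cKO levels were 73.7, 68.8, 64.5, 65.6 and 62.3 CPM fed and 61.4, 51.6, 43.5, 57.2 and 57.5 CPM fasted, a 1.23-fold fall (edgeR log2 fold change -0.30 ± 0.082 (SE), adjusted p = 0.00255). The fed cKO libraries lay below all fed wild-type libraries (edgeR log2 fold change -0.38 ± 0.079 (SE), adjusted p = 0.00166), and the fasted cKO libraries mostly above the fasted wild-type ones, with library 3 at 43.5 CPM overlapping (edgeR log2 fold change 0.43 ± 0.085 (SE), adjusted p = 0.000766). The interaction was 0.81 ± 0.12 on the log2 scale (adjusted p = 1.78e-05, edgeR), and it held under all 29 alternative settings and left-out libraries run.

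Fh1 encodes fumarase, which turns fumarate into malate (chr1:175600374-175625635, minus strand, GRCm38). It was at 139, 145, 129, 139.9 and 138 CPM in wild-type fed and 98.8, 91.1, 85.6, 92.2 and 92.6 CPM in wild-type fasted libraries (edgeR log2 fold change -0.59 ± 0.058 (SE), adjusted p = 9.52e-10). For cKO libraries the levels were 138, 136, 142, 143 and 152 CPM fed and 136, 118, 130.5, 125 and 120.2 CPM fasted (edgeR log2 fold change -0.18 ± 0.057 (SE), adjusted p = 0.0109). Every fasted cKO library lay above every fasted wild-type library (edgeR log2 fold change 0.45 ± 0.058 (SE), adjusted p = 4.89e-06), while the fed groups overlapped (0.04 on the log2 scale, not past). The interaction was 0.41 ± 0.081, adjusted p = 0.000734 (edgeR).

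Idh3a, at chr9:54586334-54604661 (plus strand, GRCm38), had 393, 432, 413, 433 and 437 CPM in wild-type fed and 343, 316, 345, 372 and 408 CPM in wild-type fasted libraries. In the cKO it had 388, 397, 402, 398 and 388 CPM fed and 430.1, 414, 425, 439.8 and 433 CPM fasted. All fasted cKO libraries lay above all fed cKO libraries, though that difference of 0.12 did not pass the test (adjusted p = 0.0687, edgeR). They also lay above all fasted wild-type libraries (edgeR log2 fold change 0.26 ± 0.055 (SE), adjusted p = 0.00119). The interaction was 0.36 ± 0.077, adjusted p = 0.0017 (edgeR).

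The remaining genotype calls were less firm. Slc2a3 in fasted mice (edgeR log2 fold change 0.52 ± 0.14 (SE), adjusted p = 0.00991) rested on cKO libraries 1 and 2, and without library 2 the difference was 0.37 (adjusted p = 0.0512). With fasted libraries 3 to 5 alone it was 0.21 (adjusted p = 0.225). The interaction of Slc2a3 (0.62 ± 0.2, adjusted p = 0.0279) ended without wild-type fed library 4, wild-type fasted library 4, cKO fed library 5 or cKO fasted library 1 or 2 (adjusted p 0.0501 to 0.0661), and was 0.32 with fasted libraries 3 to 5 alone (adjusted p = 0.131).

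Pfkfb3, which makes the phosphofructokinase activator, had 5.84, 6.46, 5.10, 5.18 and 4.19 CPM in wild-type fasted and 12.9, 9.74, 11.4, 7.04 and 4.18 CPM in cKO fasted libraries (edgeR log2 fold change 0.76 ± 0.23 (SE), adjusted p = 0.0209). The groups overlapped through cKO library 5, and the call ended without wild-type library 5 or cKO library 1 or 3 (adjusted p 0.0557 to 0.0813). In fed mice the Pfkfb3 difference was 0.66 ± 0.23 and not past the test (adjusted p = 0.0652, edgeR). Its interaction was 0.10 ± 0.33 (adjusted p = 0.871, edgeR). Mdh1 was lower in every fasted cKO library than in every fasted wild-type library (edgeR log2 fold change -0.16 ± 0.041 (SE), adjusted p = 0.00567). Pfkm (edgeR log2 fold change -0.26 ± 0.09 (SE), adjusted p = 0.0425) lost its call without wild-type fasted library 4 or 5 or cKO fasted library 1, 2, 3 or 4 (adjusted p 0.0552 to 0.178). Dld (edgeR log2 fold change 0.17 ± 0.057 (SE), adjusted p = 0.0384) lost its call without wild-type fasted library 2, 3 or 4 or cKO fasted library 1, 2 or 3 (adjusted p 0.0617 to 0.0998). Pomc-neuron markers summed to 850 to 1118 CPM in cKO fasted libraries 3 to 5 and to 343.7 to 552 CPM in the other 17 libraries, and their part in these differences was not tested.

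**Figure D4:**
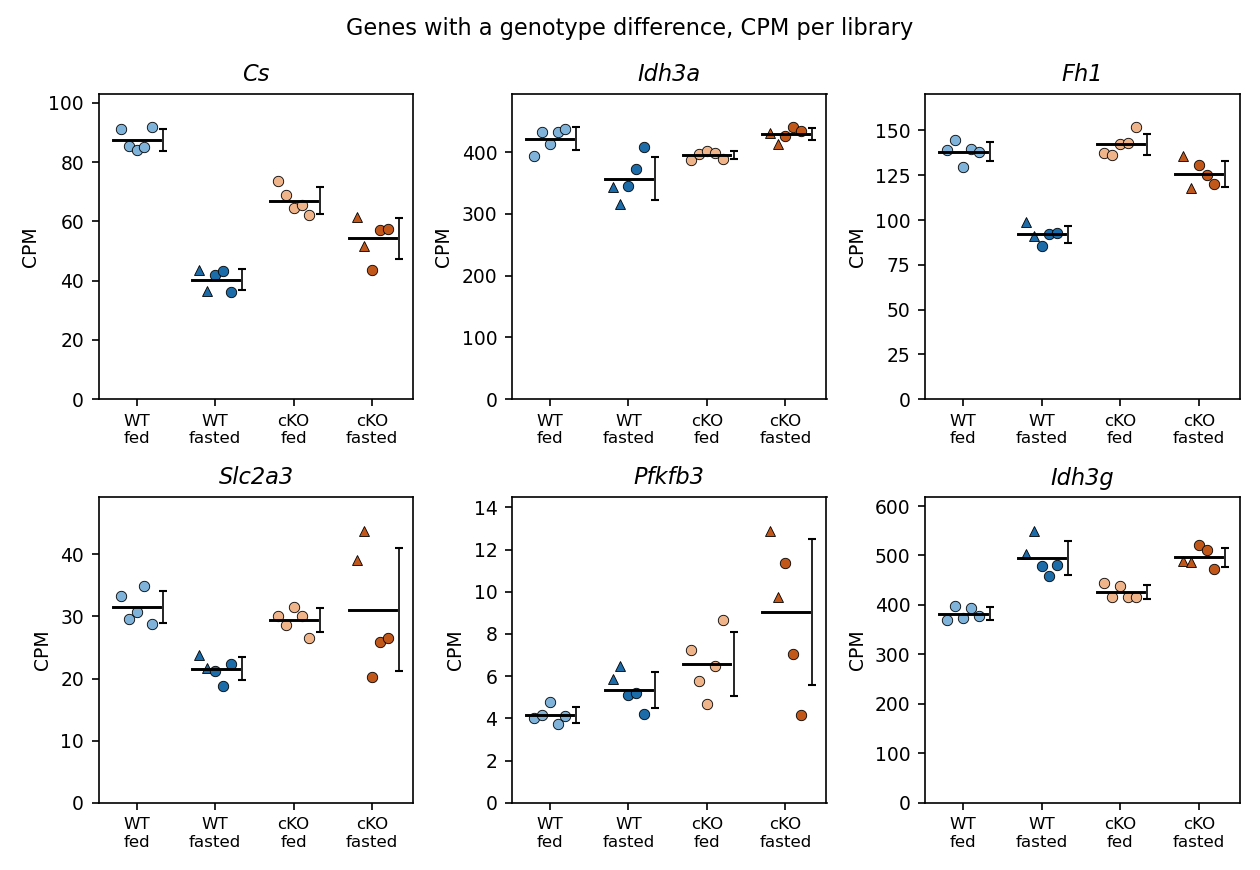
CPM (y axis) of 6 genes with a genotype or interaction call in each library of the 4 groups (x axis), with lines for group means, bars for the SD (n = 5) and triangles for fasted libraries 1 and 2. Cs fell from 87.4 to 40.3 CPM in the wild type and from 67.0 to 54.2 CPM in the cKO, and the raised Slc2a3 values of the cKO fasted group are the triangles.

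The tested genes were more often lower than higher in fasted libraries 1 and 2. In the wild type, 16 of 38 (42.1%) were lower in both of these libraries than in all of libraries 3 to 5, against 22.3% of all tested genes, and 4 (10.5%) were higher, against 25.6%. In the cKO 9 (23.7%) were lower against 17.2%, and 4 (10.5%) were higher against 17.2%. Pkm, Gpi1 and Tpi1 were among those lower in the wild type, with Pkm at 374 and 423 CPM against a mean of 751, Gpi1 at 334 and 327 against 513, and Tpi1 at 616 and 638 against 867 CPM. With libraries 1 and 2 alone the fasted genotype comparison had Gpi1 higher in cKO by 0.25 (adjusted p = 0.00446), Tpi1 by 0.20 (adjusted p = 0.0157) and Pkm by 0.26 (adjusted p = 0.00397, edgeR), opposite in sign to the comparison over all libraries. No label gives a reason for the split, and its cause was not tested.

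Lists of other genes of these pathways give the surroundings of the 39, in 7 sets. Their counts stand beside shares over all tested genes of 29.6% higher and 31.3% lower with fasting in the wild type and 26.0% and 27.0% in the cKO, and nothing particular to a list is read from them. Of the other glycolytic enzymes and glucose transporters, 3 rose and 4 fell with fasting in the wild type and 2 rose and 7 fell in the cKO, of 14 tested. Tigar, a phosphatase that lowers fructose 2,6-bisphosphate, fell in the wild type (-1.60 ± 0.22, adjusted p = 2.82e-07, edgeR log2 fold change ± SE), and its interaction was 1.12 ± 0.3, adjusted p = 0.00979.

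Among 10 tested genes of pyruvate entry, 5 rose and 1 fell in the wild type and 5 rose and 4 fell in the cKO. Mpc1, a subunit of the mitochondrial pyruvate carrier, rose in both (0.52 ± 0.06, adjusted p = 1.74e-08 and 0.54 ± 0.06, adjusted p = 1.59e-08, edgeR). Pdk2, a kinase that inhibits pyruvate dehydrogenase, went from 30.1 ± 3.03 to 12.9 ± 3.54 CPM in the wild type and from 35.0 ± 2.58 to 10.4 ± 1.70 CPM in the cKO (-1.22 and -1.75 on the log2 scale, both past the test). Pdp1, the phosphatase that reactivates the complex, was higher in cKO than wild type when fed (77.0 ± 6.69 against 51.9 ± 4.42 CPM, 0.57 ± 0.074, adjusted p = 3.85e-06). It rose with fasting in the wild type to 78.9 ± 3.49 CPM, and its interaction was -0.54 ± 0.11, adjusted p = 0.000657 (edgeR).

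Of 14 other citric acid cycle and anaplerotic genes, 1 rose and 8 fell in the wild type and 1 rose and 5 fell in the cKO. Sdhb, a subunit of succinate dehydrogenase, was the one that rose in the wild type and in the cKO (0.53 ± 0.048, adjusted p = 1.48e-10 and 0.41 ± 0.048, adjusted p = 3.73e-08, edgeR). Idh1, the cytosolic NADP-dependent isocitrate dehydrogenase, fell from 197 ± 17.2 to 68.9 ± 8.52 CPM in the wild type and from 203 ± 12.5 to 82.1 ± 12.2 CPM in the cKO. Me1, the cytosolic malic enzyme, had 73.4 ± 4.56, 52.2 ± 2.77, 70.7 ± 2.69 and 78.6 ± 8.09 CPM in wild-type fed, wild-type fasted, cKO fed and cKO fasted libraries, with an interaction of 0.65 ± 0.1, adjusted p = 5.93e-05 (edgeR). Of this list, 4 genes were higher and none lower in cKO than wild type when fasted, against 11.5% and 8.84% of all tested genes. They were Me1, Me2, Idh2 and Idh1. The calls of Me2, Idh2 and Idh1 ended under several alternatives, and that of Me1 did not. In the fit on the 2 fasted groups alone the adjusted p was 0.107, 0.168 and 0.164 for Me2, Idh2 and Idh1 (edgeR).

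Of 8 shuttle genes, 2 rose and 4 fell in the wild type and 1 rose and 4 fell in the cKO. Got1, the cytosolic aspartate aminotransferase that works with Mdh1, rose in both (0.76 ± 0.08, adjusted p = 3.72e-09 and 0.34 ± 0.08, adjusted p = 0.000818, edgeR), while Gpd2, the mitochondrial glycerol 3-phosphate dehydrogenase, fell in both (-1.26 ± 0.13, adjusted p = 1.47e-09 and -0.60 ± 0.12, adjusted p = 0.000184, edgeR). Of 8 pentose phosphate genes, 1 rose and 5 fell in the wild type and 1 rose and 4 fell in the cKO, with Taldo1, transaldolase, at -0.91 and -0.62 on the log2 scale. Of 9 tested genes of gluconeogenesis and glycogen, 1 rose and 5 fell in the wild type and 1 rose and 4 fell in the cKO. Pck2, the mitochondrial PEP carboxykinase, was at -1.28 and -1.28, and Pygl, a glycogen phosphorylase, at -1.21 and -1.74 on the log2 scale, all past the test.

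Of 17 tested regulators of glucose use and of the hypoxia and energy responses, 9 rose and 5 fell in the wild type and 6 rose and 1 fell in the cKO. Txnip, which restrains glucose uptake and is induced by glucose-sensing factors, had 0.959 ± 0.704 CPM in wild-type fed, 8.54 ± 2.79 in wild-type fasted, 5.98 ± 1.12 in cKO fed and 4.97 ± 2.21 CPM in cKO fasted libraries. Its interaction was -3.40 ± 0.49, adjusted p = 2.05e-05 (edgeR). Bnip3, a mitophagy receptor and hypoxia target, had 277 ± 12.4, 871 ± 43.0, 412 ± 15.9 and 792 ± 85.0 CPM in the same order, with an interaction of -0.71 ± 0.083, adjusted p = 1.13e-06. Myc, a transcription factor that binds E-boxes of glycolytic genes, had 8.19 ± 1.57, 22.6 ± 5.03, 15.7 ± 4.08 and 14.0 ± 3.05 CPM, with an interaction of -1.63 ± 0.26, adjusted p = 5.85e-05. All 3 were higher in cKO than in wild-type libraries when fed (2.61, 0.57 and 0.94 on the log2 scale, each past the edgeR test).

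Between genotypes the counts of these lists stand beside shares over all tested genes, higher and lower. Those shares were 5.87% and 3.81% in fed mice, 11.5% and 8.84% in fasted mice, and 8.87% and 8.44% for the interaction. Nothing particular to a list is read from the counts, and fed mice come first. The counts of higher and lower genes in cKO were 0 and 0 for other glycolytic genes, 1 and 0 for pyruvate entry, 0 and 0 for other cycle genes, 1 and 0 for shuttles, 0 and 1 for pentose phosphate genes, 0 and 0 for gluconeogenesis and glycogen, and 3 and 0 for regulators. In fasted mice the counts were 2 and 3, 1 and 2, 4 and 0, 2 and 0, 1 and 0, 1 and 1, and 4 and 1 in the same order of lists. For the interaction they were 2 and 3, 0 and 2, 1 and 0, 1 and 1, 1 and 0, 1 and 0, and 2 and 3.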

How the data were processed

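The deposited table holds raw counts per gene, whole numbers that the authors made from the reads of 20 libraries. Trimmomatic 0.36, HISAT2 2.1.0, featureCounts of Subread 1.6.2 and DESeq2 1.20.0, and the build GRCm38 (mm10), are named per the submitters' processing notes. Not given in the sources used here: annotation, strand setting and handling of multiply matching reads. The libraries were made with 15 cycles of cDNA amplification, per the labels' protocols, without molecular identifiers, so count limits cover counting error only.

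The count table was fitted whole with edgeR 4.0.16 (R 4.3.3): TMM scaling, the expression filter at 10 counts (15 in total), a quasi-likelihood fit of 4 group means over 20 libraries, 13237 tested genes, Benjamini-Hochberg adjustment over all of them, and a threshold of 0.05. The SE of a log2 fold change is its size over the square root of F. CPM per kilobase uses the union exon length of GENCODE M21. Where the symbol Aldoa had several models, the one with most exon bases was used. On simulated counts the fit recovered 61% of 1.5-fold and 88% of 2-fold changes for fasting in the wild type (12886 genes tested). Over the 4 simulated comparisons recovery ran from 54% to 65% and from 80% to 88%. The simulation changed far fewer genes than the 60.9% called with fasting in the wild type. These shares therefore do not measure recovery in the real data.

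The 39 genes and the lists were chosen with earlier results of these data known. Named genes outside the 39 are, per list and comparison, up to 4 with the smallest adjusted p. No pair of libraries of a group agreed within sampling noise (chi-square per degree of freedom 3.36 to 24.4). Alternatives were other scalings and filters, DESeq2 1.42.0, a replicate block, the compared groups alone, fasted libraries 1 and 2 or 3 to 5 alone, GC and length offsets, and each library left out in turn.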

Additional observations from a re-analysis of the deposited data

Results flagged for a closer look

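Among 156 sets of 5 libraries (39 genes in 4 groups), 5 had 1 library set off by a gap that chance gives in about 1 set in 20. Gpi1 read 595 CPM in cKO fed library 3, with the next library at 551 CPM. Pfkfb2 read 30.6 CPM in cKO fasted library 5, with the next at 24.5 CPM. Aldoc read 278 CPM in wild-type fed library 4, with the next at 209.6 CPM. Eno1 read 0.482 CPM in wild-type fed library 5, with the next at 0.234 CPM, both from a few counts. Pcx read 0.836 CPM in cKO fasted library 5, below the next lowest at 2.15 CPM.

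The fasting response differed between the genotypes for 4 genes by edgeR's interaction test. The difference, cKO response less wild-type response on the log2 scale, was 0.81 for Cs, 0.41 for Fh1, 0.36 for Idh3a and 0.62 for Slc2a3.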

How the results depend on the processing

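Of 66 member calls over the comparisons, 48 held under every alternative and left-out library run, Cs, Fh1, Pfkl, Hk1, Eno2, Ogdh, Mdh1 and Dlat with fasting in both genotypes among them. Of 110 calls of other named genes, 31 were lost or turned under at least 1. Calls of members with fasting in the wild type, higher and lower, ran from 8 to 11 and from 14 to 18 when each library was left out, and fasting in the cKO from 8 to 10 and from 13 to 14. In the wild type 7 were higher with fasted libraries 1 and 2 only, where the median was -0.217. For cKO against wild type when fed, 0 were higher with no filter, with the replicate block or with GC and length offsets, 2 were higher and 2 lower with DESeq2, and 4 higher and 6 lower in the fit on these 2 groups. Leaving out each library gave 0 to 1 higher and 1 lower. For cKO against wild type when fasted, 3 were higher and 1 lower in the fit on 2 groups, 11 higher with fasted libraries 1 and 2 only, and 3 higher and 8 lower with libraries 3 to 5 only. Leaving out each library gave 4 to 6 higher and 1 to 3 lower. For the interaction, 1 was negative with fasted libraries 1 and 2 only (median 0.112) and 7 with libraries 3 to 5 only, and leaving out each library gave 3 to 5 positive and 0 to 1 negative. The settings on part of the fasted libraries were not run for the fed genotype comparison, and the fit on 2 groups not for the interaction. The cause of these shifts was not tested.

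Signs turned in these cases. With fasted libraries 1 and 2 only, fasting in the wild type gave Pfkp -0.26, Aldoa -0.17, Pdha1 -0.0435 and Mdh2 -0.0164, the fasted genotype comparison gave Gpi1 0.25, Tpi1 0.20 and Pkm 0.26, and the interaction gave Pfkp 0.34. With libraries 3 to 5 only, fasting in the cKO gave Slc2a3 -0.28. With GC and length offsets, which covered 95.9% of tested genes, Ldhb was -0.17 with fasting in the wild type and Aldoa 0.13 in the cKO. Those offsets also ended 11 of the 66 member calls. With fasting these were Slc2a1, Gpi1, Pgk1, Slc16a1, Pdha1 and Pcx in the wild type and Dld and Dlst in the cKO. Between genotypes they were Idh3g when fed and Pfkm and Dld when fasted.

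The labels give replicate numbers no shared source, and not every same-numbered pair correlated over 0.1 (4 of 5 did between the fasted groups), so the libraries were not treated as paired. Correlations of same-numbered libraries ran from -0.0084 to 0.0337 and from -0.0442 to 0.0335 between fed and fasted, and from -0.0373 to 0.0281 and from 0.0404 to 0.2 between genotypes, the last for the fasted groups, where numbers 1 and 2 stood apart in both. A library correlated best with its own number in 1, 3, 0 and 2 of 5 cases. The replicate block gave 11 higher and 18 lower members for fasting in the wild type, 9 and 14 in the cKO, 0 and 1 for genotype when fed, 6 and 2 when fasted, and 4 and 0 for the interaction. Depth limits Hk2, Pcx, Slc16a7 and Pfkfb3, which had few counts, and Eno1 could not be tested.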
